A study of Mus musculus with 14 samples.

Results

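The 34 genes described here mark macrophages and other myeloid cells, or are made by them, and were followed through puberty in the mouse mammary gland. Their probe sets were taken by symbol and by no measured value, as all those whose platform annotation names exactly 1 of the 34 genes. The list of genes itself was chosen with earlier results of these data known. All 34 were found, on 49 of the 22690 probe sets of the array, out of 12394 genes named. 28 of them had 1 probe set, 3 had 3 and 3 had 4, and a further probe set that names Csf2rb together with Csf2rb2 was not used. The study profiled whole inguinal mammary glands of untreated female CD1 mice, an outbred strain, with Affymetrix arrays of gene expression when they were 3, 4, 5, 6 or 7 weeks old (written 3wk to 7wk). Every age had 3 arrays (A, B and C) except 5wk, which had 2 (A and B), 14 in all. The RNA for an array came from a pool of 3 or more mice, and the lymph node had been cut out of the gland before extraction. Pools of the same age serve as replicates here, p-values cover the spread among pools and not among mice, and the sources used here do not say whether pools shared animals.

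Macrophages and eosinophils gather around the terminal end buds, the growing tips that carry the ducts through the fat pad during puberty. The growth factor Csf1, acting through its receptor Csf1r, supports macrophages in most tissues, and mice without Csf1 have fewer of them in the gland and a stunted ductal tree. Macrophages also clear dying cells from the buds, take part in shaping the collagen around them and line the ducts later, while mast cells and neutrophils are sparser residents of the same stroma.

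Each deposited value is the signal of a probe set divided by that probe set's median over the series. A value of 1 is therefore the middle of the series, and ratios carry no level that could be set between genes. Differences between ages are given on the log2 scale with the standard error (SE) of a limma fit to all 14 arrays, and a probe set is called where the p-value adjusted over all 18485 tested probe sets (Benjamini-Hochberg) was under 0.05. Of the 49 member probe sets 47, of 33 genes, were tested. Marco and 1 of the 4 probe sets of Msr1, both genes of scavenger receptors, fell below the filter on low signal. Probe sets for the usual macrophage markers Adgre1, Cd68, Csf1r, Mrc1, Cd163 and all 3 C1q chains passed it, as did those for the luminal, basal and fat cell markers of the gland. A level before division could be recovered for 28.68% of the probe sets, and those without one were kept. None was recovered for these macrophage markers, so that passing the filter was no measure of their signal. The number of arrays limits the precision: the 95% interval of a difference between ages with 3 arrays each reached a median of 0.52 to either side over the members. The 5′ to 3′ log2 ratio of the actin control probe sets, which falls as RNA is degraded, averaged between -0.45 ± 0.35 at 6wk and 0.20 ± 0.10 at 4wk (SD, n = 3 each), with 6wk A at -0.46 and 6wk B at -0.79 the lowest arrays. The same ratio of the pyruvate carboxylase control averaged -0.09 ± 0.51 at 3wk, 0.33 ± 0.21 at 4wk, -0.96 ± 0.42 at 5wk (n = 2), -2.37 ± 0.50 at 6wk and 0.82 ± 0.08 at 7wk (SD, n = 3 elsewhere), so that all 3 arrays of 6wk lay below every other array. The hybridisation controls, added to every sample, averaged -1.21 ± 0.58 at 7wk against 0.15 ± 0.40 at 3wk in log2 ratio. The actin ratio and the hybridisation controls were each tried as a covariate, and the part of the pyruvate carboxylase ratio in differences that involve 6wk was not tested. Array 3wk A stood furthest apart in the members: its median ratio over the 47 probe sets was 0.758, against 1.08 on 3wk B and 1.05 on 3wk C. On the later arrays that median lay between 0.86 on 6wk B and 1.14 on 7wk B. Member differences from 3wk that turn on 3wk A are given with and without it.

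Few of the myeloid genes were called as differing between ages. Cd14 rose after 4wk, S100a8 and 1 probe set of C1qb rose at 6wk, and no member was called lower in any of the 7 comparisons. The call of that C1qb probe set was lost in 16 of 25 alternative settings, and S100a8 differed by 0.54 without a call once the actin ratio was a covariate, while Cd14 at 6wk and 7wk was called in all 25. In the F test over all ages 1 of the 47 probe sets was called, against 10.3% of all probe sets tested. At an unadjusted p under 0.05 the test took 8 of them (17%), against 27.6% of all. For 4wk against 3wk 0 were called, where the background was 0.151% (limma; 3 at an unadjusted p under 0.05, or 6.38%, against 10.3% of all). For 5wk against 3wk Cd14 was called, with 2.13% of the members against a background of 3.63%. For 6wk against 3wk Cd14, S100a8 and 1 of the 3 probe sets of C1qb were called, all higher at 6wk. That was 6.38% of the members against 13.7% of all in either direction, and against 9.14% of all that were called higher. For 7wk against 3wk Cd14 was again the 1 member called, or 2.13% against 8.55%.

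Between neighbouring ages from 4wk on, limma called none of the members. The background was 0.752% for 5wk against 4wk, 0.281% for 6wk against 5wk and 0.958% for 7wk against 6wk, and at an unadjusted p under 0.05 the comparisons took 4, 1 and 8 members. Those unadjusted shares were 8.51%, 2.13% and 17%, against 14.9%, 10.5% and 14% of all probe sets. These shares lay below the background in each comparison except the last week. In bulk tissue, fewer cells of a type and less RNA per cell cannot be told apart, so a ratio here is the RNA of a gene per RNA of the whole gland.

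A missed threshold does not show that a gene stayed level. For 7wk against 3wk the 95% interval lay between -1 and 1 for 28 of the 47 probe sets, and for 6wk against 3wk for 32, which bounds those changes to less than 2-fold. The median difference of the members at 7wk was 0.22, with 36 higher and 11 lower, against a median of 0.08 over all probe sets tested. Without 3wk A it was 0.05, with 28 higher and 19 lower, against 0.05 over all. At 6wk it was 0.03 (24 higher, 23 lower) against 0.07, and without 3wk A it was -0.14 (17 higher, 30 lower) against 0.04. The arrays of 7wk and 3wk did not overlap for 11 members (9 higher, 2 lower), or 23.4%, against 28.4% of all. Those of 6wk and 3wk did not overlap for 7 (14.9%), against 32.6%. Without 3wk A the sign turned for 10 of the 47 differences at 7wk and for 9 at 6wk, none of them called.

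**Figure D1:**
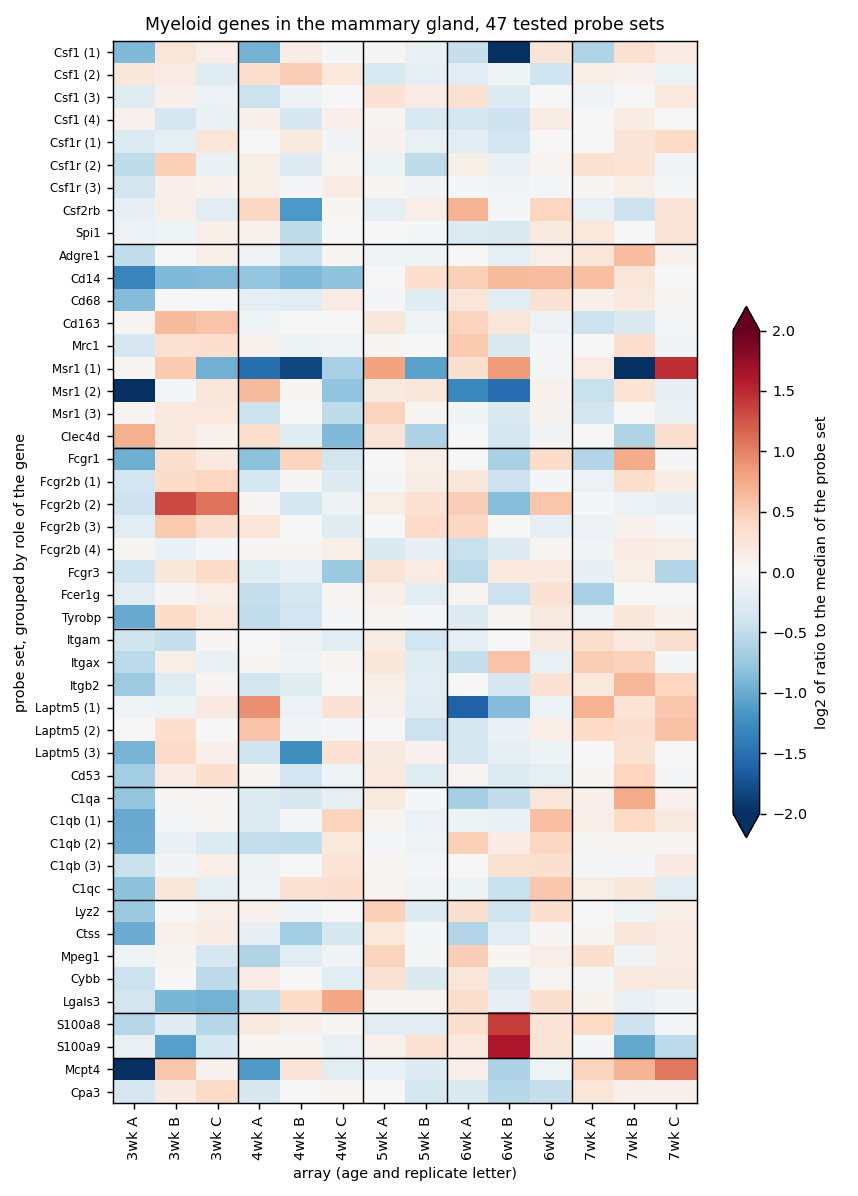
Log2 ratio to the probe set's own median (colour, red above and blue below 0) for the 47 tested probe sets in rows, grouped by the role of the gene, and the 14 arrays in columns, with black lines between ages and between roles; numbers in brackets count the probe sets of a gene. Cd14 turns from blue at 3wk and 4wk to red from 5wk on, and the column of 3wk A is bluer than its neighbours, with the lowest ratio of its age in 35 of 47 rows.

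Cd14, the surface receptor that hands bacterial lipopolysaccharide to Tlr4, was low at 3wk and 4wk and higher from 5wk on. Its ratios were 0.40, 0.545 and 0.547 at 3wk, 0.583, 0.541 and 0.575 at 4wk, 1.0 and 1.27 at 5wk, 1.39, 1.54 and 1.53 at 6wk and 1.52, 1.18 and 0.999 at 7wk. The 6 arrays of the 2 early ages lay between 0.400 and 0.583 and the 8 arrays of the later ages between 0.999 and 1.54, with no overlap. Its mean ratio was 0.497 ± 0.0843 (SD, n = 3) at 3wk, 0.566 ± 0.0223 (SD, n = 3) at 4wk, 1.14 ± 0.189 (SD, n = 2) at 5wk, 1.49 ± 0.0854 (SD, n = 3) at 6wk and 1.23 ± 0.262 (SD, n = 3) at 7wk. The F test over ages gave an adjusted p of 0.000826. Against 3wk, Cd14 rose by 1.20 (SE 0.20) at 5wk, by 1.59 (SE 0.18) at 6wk and by 1.30 (SE 0.18) at 7wk, with adjusted p of 0.00856, 0.000390 and 0.00148. These are folds of 2.29, 3.02 and 2.47. The step from 4wk to 5wk was 0.99 (SE 0.20) with an adjusted p of 0.0501, just short of a call, and 4wk differed from 3wk by 0.20 (SE 0.18). Between 6wk and 7wk the difference was -0.29 (SE 0.18), adjusted p = 0.506. Without 5wk B the difference at 5wk was 1.02 and was not called (adjusted p = 0.0923); that fit holds 1 array of 5wk, assumed to vary like the arrays of the other ages. The rises at 6wk and 7wk were called in all 25 alternatives. Without 3wk A the rise at 7wk was 1.15, adjusted p = 0.00533.

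Cd14 is made by luminal epithelial cells of the mammary gland as well as by macrophages, and the luminal markers also rose between 3wk and 7wk. From 3wk to 4wk the median difference of the luminal probe sets was 0.72, with 1 called higher, while Cd14 differed by 0.20 (SE 0.18). Of the 15 tested probe sets of 9 luminal marker genes, 14 were called over the ages and all 15 were called higher at both 6wk and 7wk than at 3wk. Their summed ratio ran from 2.91 to 5.43 on the arrays of 3wk, 5.81 to 9.35 at 4wk, 17.0 to 20.5 at 5wk, 18.1 to 36.8 at 6wk and 26.2 to 35.8 at 7wk. Between 3wk and 7wk the luminal transcription factor gene Elf5 rose by 2.86 (SE 0.20) and the adhesion genes Cdh1 and Epcam by 2.43 (SE 0.22) and 3.05 (SE 0.27) (adjusted p = 3.98e-05, 0.000110 and 0.000105). Their part in the rise of Cd14 was not tested. Of the 8 further tested probe sets of macrophage surface markers and scavenger receptors limma called 0 over the ages, where 10.3% of all were called. At an unadjusted p under 0.05 it took 1, Cd163, against 27.6% of all. Counts from 8 probe sets are too small to tell apart from those shares. The partners of Cd14 in lipopolysaccharide sensing, chosen after its values were seen, were not called either. Tlr4 differed between 7wk and 3wk by 0.06 (SE 0.32) and -0.02 (SE 0.16) on its 2 probe sets, and its co-receptor gene Ly96 by 0.20 (SE 0.33). Lbp, which encodes the lipopolysaccharide binding protein, differed by 0.53 (SE 0.20), with an adjusted p of 0.131, and Tlr2 and Myd88 by 0.36 (SE 0.26) and 0.09 (SE 0.14).

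**Figure D2:**
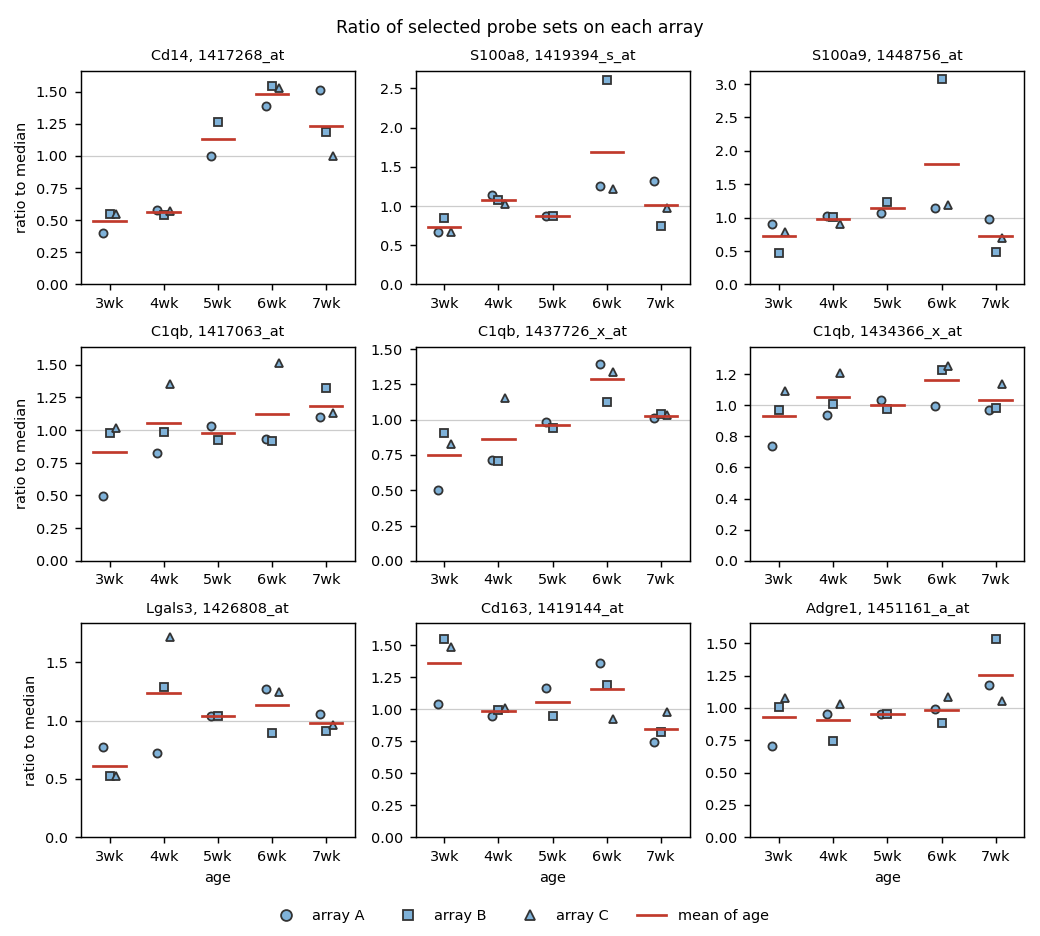
Ratio to the probe set's own median (vertical axis, linear and starting at 0) at each age for 9 probe sets of 7 members, with 1 point for each array (circle A, square B, triangle C) and a red line at the mean of the age. Cd14 steps up between 4wk and 5wk, S100a8 and S100a9 are high on 6wk B, the 3 probe sets of C1qb share a low 3wk A, and Adgre1 and Cd163 lie between 0.708 and 1.55.

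The growth factor Csf1 and the receptors and transcription factor of the lineage gave no call at any age (0 of 9 probe sets by limma). Over the ages 10.3% of all probe sets were called. At an unadjusted p under 0.05 over the ages 1 of the 9 was taken, against 27.6% of all. The median difference of the 9 was 0.13 at 7wk against 3wk, or 0.05 without 3wk A. Csf1 is measured by 4 probe sets that did not follow each other. Probe set 1425154_a_at read 1.17, 1.12 and 0.850 at 3wk, 1.27, 1.41 and 1.15 at 4wk, 0.811 and 0.885 at 5wk, 0.857, 0.944 and 0.759 at 6wk and 1.10, 1.06 and 0.932 at 7wk, with its 2 highest values at 4wk and all 5 arrays of 5wk and 6wk below 1. It had the smallest F test p of the 4, adjusted p = 0.103, and was called with the replicate letter as a block (adjusted p = 0.0340). Probe set 1460220_a_at read 0.843, 1.08 and 0.923 at 3wk, 0.743, 0.936 and 1.01 at 4wk, 1.23 and 1.12 at 5wk, 1.24, 0.828 and 1.0 at 6wk and 0.950, 1.0 and 1.16 at 7wk, with both arrays of 5wk above all 6 of 3wk and 4wk and no call. Probe set 1448914_a_at read 1.06, 0.792 and 0.915 at 3wk, 1.08, 0.802 and 1.08 at 4wk, 1.04 and 0.814 at 5wk, 0.793, 0.751 and 1.11 at 6wk and 1.0, 1.10 and 0.996 at 7wk, and its ages overlapped. Probe set 1425155_x_at read 0.543, 1.19 and 1.09 at 3wk, 0.517, 1.11 and 0.986 at 4wk, 1.01 and 0.909 at 5wk, 0.727, 0.131 and 1.20 at 6wk and 0.656, 1.24 and 1.12 at 7wk, with 6wk B far below every other array, and an SE of 0.67 at 7wk against 3wk. Differences of Csf1 between 7wk and 3wk were -0.02, 0.13, 0.18 and 0.12 in that order, and 0.07, 0.05, 0.28 and -0.23 without 3wk A.

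Csf1r, the receptor for Csf1, read 0.826, 0.872 and 1.18 at 3wk, 1.0, 1.14 and 0.968 at 4wk, 1.05 and 0.901 at 5wk, 0.851, 0.763 and 1.01 at 6wk and 0.996, 1.20 and 1.31 at 7wk on probe set 1423593_a_at. Its second probe set, 1419873_s_at, read 0.707, 1.39 and 0.911 at 3wk, 1.08, 0.838 and 1.04 at 4wk, 0.930 and 0.702 at 5wk, 1.09, 0.908 and 1.04 at 6wk and 1.23, 1.21 and 0.963 at 7wk. The third, 1419872_at, read 0.772, 1.08 and 1.05 at 3wk, 1.10, 0.979 and 1.11 at 4wk, 1.02 and 0.966 at 5wk, 0.985, 0.964 and 0.977 at 6wk and 1.02, 1.09 and 0.975 at 7wk. There 13 of the 14 arrays lay between 0.964 and 1.11, with 3wk A below. Csf1r differed between 7wk and 3wk by 0.29 (SE 0.18), 0.23 (SE 0.23) and 0.10 (SE 0.14) on the 3 probe sets, and the interval of the third, -0.20 to 0.40, lies within 0.5 of 0 on the log2 scale. Without 3wk A the 3 differences were 0.19, 0.00 and -0.05. Spi1, which encodes the transcription factor PU.1 that macrophages and neutrophils need, read 0.919, 0.941 and 1.09 at 3wk, 1.06, 0.701 and 1.01 at 4wk, 1.0 and 0.984 at 5wk, 0.826, 0.820 and 1.15 at 6wk and 1.16, 1.0 and 1.20 at 7wk, a difference of 0.19 (SE 0.19) at 7wk against 3wk. Csf2rb, the shared chain of the receptors for granulocyte-macrophage colony-stimulating factor and the interleukins 3 and 5, ran from 0.451 to 1.62 with no order by age (F test adjusted p = 0.678).

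Among surface markers, Adgre1, the antigen by which mouse macrophages are usually counted, read 0.708, 1.01 and 1.08 at 3wk, 0.953, 0.742 and 1.03 at 4wk, 0.950 and 0.951 at 5wk, 0.992, 0.884 and 1.09 at 6wk and 1.18, 1.54 and 1.06 at 7wk. Its highest arrays were 7wk B and 7wk A, while 7wk C overlapped the earlier ages, and the difference at 7wk against 3wk was 0.44 (SE 0.20), adjusted p = 0.223, or 0.25 without 3wk A. Cd68, a glycoprotein of macrophage lysosomes, read 0.549, 0.995 and 1.01 at 3wk, 0.873, 0.859 and 1.12 at 4wk, 0.986 and 0.850 at 5wk, 1.19, 0.860 and 1.24 at 6wk and 1.07, 1.14 and 1.01 at 7wk. 3wk A was its lowest array, and 7wk exceeded 3wk by 0.39 (SE 0.24) with all 3 arrays of 7wk just above those of 3wk (adjusted p = 0.365), and by 0.10 without 3wk A. Mrc1, the mannose receptor, read 0.790, 1.24 and 1.24 at 3wk, 1.07, 0.930 and 0.957 at 4wk, 1.02 and 0.997 at 5wk, 1.44, 0.818 and 0.989 at 6wk and 1.0, 1.26 and 0.964 at 7wk, and its means at 7wk and 3wk differed by 0.00 (SE 0.23) with an interval of -0.50 to 0.50. Without 3wk A they differed by -0.22.

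Cd163, the scavenger receptor for haemoglobin bound to haptoglobin, had its highest mean ratio at 3wk. It read 1.04, 1.55 and 1.49 at 3wk, 0.946, 0.991 and 1.01 at 4wk, 1.17 and 0.943 at 5wk, 1.36, 1.19 and 0.924 at 6wk and 0.745, 0.818 and 0.975 at 7wk. Its 2 highest arrays were 3wk B and 3wk C, and all 3 arrays of 7wk lay below those of 3wk. The difference at 7wk was -0.67 (SE 0.19), adjusted p = 0.0554, just short of a call. Without 3wk A it was -0.85 and was called (adjusted p = 0.0262), and without 6wk C it was called at an unchanged size (adjusted p = 0.0452). Centring each array, quantile normalization, the stricter filter, gene means and array weights called it too, with differences of -0.67 to -0.79. Leaving out 3wk B gave -0.57 with an adjusted p of 0.161. The 3 tested probe sets of the scavenger receptor gene Msr1 differed by 0.01, 0.51 and -0.31 at 7wk against 3wk, the first with an SE of 0.79, and by 0.10, -0.21 and -0.36 without 3wk A. Clec4d, a C-type lectin of myeloid cells, differed by -0.42 (SE 0.34), or -0.23 without 3wk A.

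The Fc receptors, by which myeloid cells bind antibody, and their signalling adaptors gave 0 calls on 8 probe sets (limma), where 10.3% of all were called over the ages. At an unadjusted p under 0.05 over the ages 0 of the 8 were taken, against 27.6% of all. The median difference of the 8 was -0.10 at 7wk against 3wk, and -0.28 without 3wk A. Fcer1g, the adaptor of the activating receptors, read 0.862, 1.02 and 1.10 at 3wk, 0.725, 0.785 and 1.03 at 4wk, 1.10 and 0.866 at 5wk, 1.04, 0.745 and 1.23 at 6wk and 0.639, 1.01 and 0.991 at 7wk, and its ages overlapped. Tyrobp, the adaptor DAP12, read 0.496, 1.29 and 1.16 at 3wk, 0.713, 0.765 and 0.978 at 4wk, 1.04 and 0.988 at 5wk, 0.837, 1.01 and 1.13 at 6wk and 0.951, 1.17 and 1.06 at 7wk. On Tyrobp 3wk A was the lowest of the 14 arrays and 3wk B the highest, so the spread at 3wk alone was as wide as the whole series, and the difference at 7wk was 0.22 with 3wk A and -0.22 without it. The activating receptor genes Fcgr1 and Fcgr3 differed between 7wk and 3wk by 0.19 (SE 0.45) and -0.28 (SE 0.28), and without 3wk A by -0.22 and -0.51. The 4 probe sets of Fcgr2b, the inhibitory receptor, differed by -0.76 to 0.12. The largest of these, on 1435477_s_at, came from 3wk B and 3wk C, at 2.51 and 2.11, against 0.752 on 3wk A and 0.553 to 1.46 at all later ages, and was -1.30 without 3wk A.

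The leukocyte integrins had their highest mean ratios at 7wk but were not called. Itgam, the CD11b chain of macrophages and granulocytes, read 0.760, 0.726 and 1.03 at 3wk, 0.992, 0.919 and 0.861 at 4wk, 1.11 and 0.767 at 5wk, 0.873, 1.01 and 1.13 at 6wk and 1.28, 1.15 and 1.25 at 7wk. All 3 arrays of 7wk lay above all 11 earlier ones, and the difference from 3wk was 0.57 (SE 0.18), adjusted p = 0.0734. Its beta chain Itgb2, named after its values were seen, read 0.602, 0.841 and 1.04 at 3wk, 0.779, 0.849 and 1.01 at 4wk, 1.09 and 0.866 at 5wk, 0.992, 0.791 and 1.22 at 6wk and 1.16, 1.59 and 1.34 at 7wk. For Itgb2 the arrays of 7wk lay above those of 3wk, with a difference of 0.74 (SE 0.23) and an adjusted p of 0.0688. Without 3wk C both were called, Itgam at 0.72 (adjusted p = 0.0396) and Itgb2 at 0.93 (adjusted p = 0.0453). Without 3wk A they were 0.51 and 0.53, adjusted p = 0.183 and 0.201. Itgax, the CD11c chain of dendritic cells and some macrophages, read 0.691, 1.10 and 0.911 at 3wk, 1.03, 0.965 and 1.03 at 4wk, 1.17 and 0.842 at 5wk, 0.720, 1.49 and 0.901 at 6wk and 1.40, 1.38 and 0.973 at 7wk, with 7wk C and 6wk B out of line with the other arrays of their ages. Its difference at 7wk was 0.48 (SE 0.27), adjusted p = 0.334, or 0.30 without 3wk A.

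Laptm5 and Cd53 encode membrane proteins of blood cells in general. The 3 probe sets of Laptm5 differed between 7wk and 3wk by 0.51, 0.33 and 0.25, and Cd53 by 0.21 (SE 0.25). Without 3wk A these were 0.47, 0.27, -0.14 and -0.10. The first probe set of Laptm5, 1417721_s_at, named after its values were seen, read 0.939, 0.932 and 1.14 at 3wk, 1.89, 0.923 and 1.23 at 4wk, 1.06 and 0.850 at 5wk, 0.327, 0.550 and 0.931 at 6wk and 1.63, 1.22 and 1.46 at 7wk. It was low on 6wk A and 6wk B, where the actin and pyruvate carboxylase ratios were lowest too, and its difference at 7wk against 6wk was 1.37 (SE 0.34), adjusted p = 0.107. Without 6wk C that difference was 1.75 and was called (adjusted p = 0.0251). The other 2 probe sets of Laptm5 gave 0.55 (SE 0.20) and 0.32 (SE 0.37) for the same week, both without a call. With the actin ratio as a covariate no probe set of Laptm5 was called for 7wk against 6wk. The part of the pyruvate carboxylase ratio in the difference on 1417721_s_at was not tested.

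**Figure D3:**
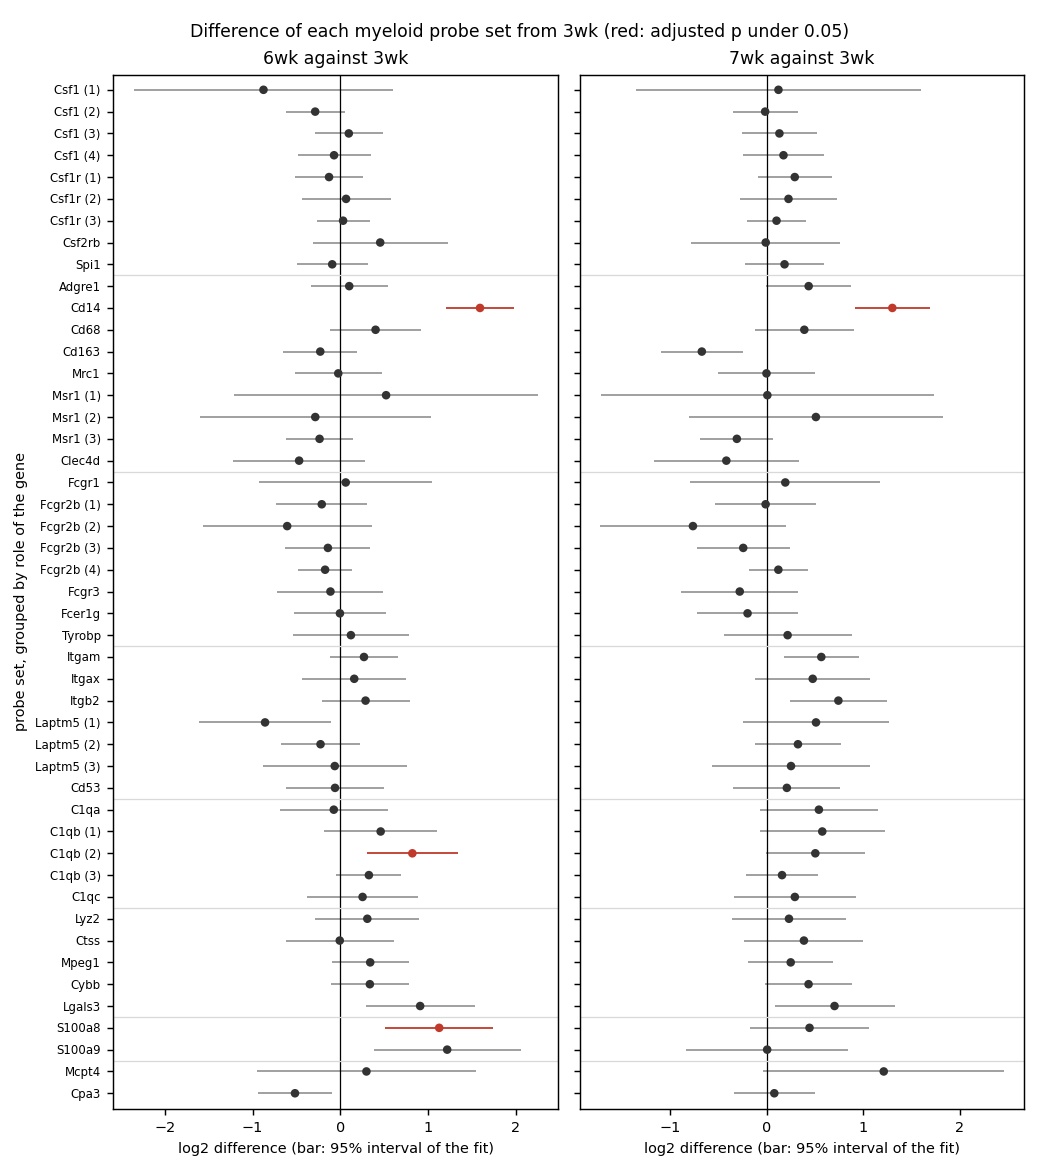
Log2 difference from 3wk at 6wk (left) and 7wk (right) for the 47 tested probe sets, grouped by role, with bars for the 95% interval of the limma fit and red for an adjusted p under 0.05. Cd14 stands at 1.59 and 1.30, S100a8 and 1 probe set of C1qb are red at 6wk but not at 7wk, and most other intervals cross 0.

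C1qa, C1qb and C1qc encode the 3 chains of complement C1q, which macrophages make and which tags dying cells for removal. In the mouse they lie side by side on chromosome 4, and the 5′ flanks of C1qb and C1qc are shown because their probe sets shared a low 3wk A and a high 6wk C. The sequences are the 250 bases before the gene start in RefSeq on GRCm38.p6, both from the minus strand, at chr4:136886201-136886450 for C1qb and chr4:136892915-136893164 for C1qc. Capitals mark GAGGAA, the core to which PU.1 binds, or TTCCTC, the same core on the other strand.
C1qb: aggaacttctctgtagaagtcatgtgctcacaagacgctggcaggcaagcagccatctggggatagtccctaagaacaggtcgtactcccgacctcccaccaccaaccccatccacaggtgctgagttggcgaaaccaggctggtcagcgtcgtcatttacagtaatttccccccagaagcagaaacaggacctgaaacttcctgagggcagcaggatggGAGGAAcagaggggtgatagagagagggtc
C1qc: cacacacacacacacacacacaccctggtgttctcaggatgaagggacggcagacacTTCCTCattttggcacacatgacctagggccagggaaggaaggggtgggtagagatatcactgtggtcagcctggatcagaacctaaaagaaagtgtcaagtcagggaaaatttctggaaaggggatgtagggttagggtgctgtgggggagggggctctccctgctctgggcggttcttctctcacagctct
The core began 30 bases before the gene start in C1qb and 193 in C1qc. Promoter windows, which hold these 250 bases and a short stretch past the gene start, were at hand for 25 of the 34 members (26 windows). Of these 15 windows (57.7%, 14 genes) held the core on either strand, against 28.3% of all 32851 windows. A match is a description of letters and not a site.

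C1qa read 0.585, 1.01 and 1.03 at 3wk, 0.834, 0.805 and 0.882 at 4wk, 1.14 and 0.987 at 5wk, 0.634, 0.710 and 1.17 at 6wk and 1.07, 1.67 and 1.06 at 7wk. 7wk B was its highest array, and 7wk differed from 3wk by 0.54 (SE 0.28) with no overlap (adjusted p = 0.283), and by 0.27 without 3wk A. C1qb on probe set 1417063_at read 0.499, 0.982 and 1.02 at 3wk, 0.825, 0.984 and 1.36 at 4wk, 1.03 and 0.922 at 5wk, 0.933, 0.916 and 1.52 at 6wk and 1.10, 1.32 and 1.13 at 7wk. On 1437726_x_at it read 0.505, 0.908 and 0.831 at 3wk, 0.717, 0.710 and 1.16 at 4wk, 0.987 and 0.944 at 5wk, 1.40, 1.13 and 1.34 at 6wk and 1.01, 1.04 and 1.03 at 7wk. On 1434366_x_at it read 0.737, 0.968 and 1.09 at 3wk, 0.936, 1.01 and 1.21 at 4wk, 1.03 and 0.976 at 5wk, 0.994, 1.23 and 1.25 at 6wk and 0.972, 0.983 and 1.14 at 7wk. All 3 were lowest on 3wk A, and the C1qc probe set ranged from 0.567 on 3wk A to 1.46 on 6wk C. The second probe set of C1qb rose by 0.82 (SE 0.24) at 6wk against 3wk, adjusted p = 0.0406, with all 3 arrays of 6wk above those of 3wk, whereas the other 2 gave 0.46 (SE 0.29) and 0.33 (SE 0.17) with adjusted p of 0.332 and 0.230. That call was lost in 16 of the 25 alternatives, among them each array of 5wk, 6wk and 7wk left out in turn, 3wk A (0.56, adjusted p = 0.115) and 3wk C (0.92, adjusted p = 0.0568). Without 5wk, 6wk or 7wk arrays 1 at a time the adjusted p ran from 0.0545 to 0.114. As a mean over the 3 probe sets C1qb differed by 0.54, adjusted p = 0.125. C1qc differed by 0.25 (SE 0.29) at 6wk and C1qa by -0.07 (SE 0.28), and without 3wk A by -0.03 and -0.34. Without it the other 2 probe sets of C1qb differed by 0.13 and 0.17.

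Genes of the lysosome and of microbial killing gave 0 calls on 5 probe sets (limma), where 10.3% of all were called over the ages. At an unadjusted p under 0.05 over the ages 1 was taken, Lgals3, against 27.6% of all. At 7wk against 3wk 5 of 5 differences were above 0, with a median of 0.39. Without 3wk A 4 of 5 were above 0 and the median was 0.27. Lyz2, the lysozyme of macrophages and neutrophils, read 0.595, 0.993 and 1.07 at 3wk, 1.06, 0.944 and 0.998 at 4wk, 1.40 and 0.823 at 5wk, 1.25, 0.761 and 1.26 at 6wk and 1.0, 0.942 and 1.09 at 7wk, from a low 3wk A to a high 5wk A, and 7wk differed from 3wk by 0.23 (SE 0.27), or -0.03 without 3wk A. The protease gene Ctss, the pore protein gene Mpeg1 and Cybb, the catalytic chain of the phagocyte oxidase, differed by 0.39 (SE 0.28), 0.25 (SE 0.20) and 0.44 (SE 0.20), and without 3wk A by 0.02, 0.27 and 0.38. Lgals3, which encodes the sugar-binding galectin 3 of macrophages and epithelium and was named after its values were seen, read 0.773, 0.528 and 0.521 at 3wk, 0.718, 1.29 and 1.71 at 4wk, 1.04 and 1.04 at 5wk, 1.27, 0.889 and 1.25 at 6wk and 1.05, 0.912 and 0.959 at 7wk. Its arrays at 6wk all lay above those of 3wk, by 0.91 (SE 0.28) with an adjusted p of 0.0548. Without 3wk A, 4wk A or 4wk C this was called (adjusted p = 0.0482, 0.0178 and 0.0331). The spread of Lgals3 at 4wk, from 0.718 to 1.71, was wider than at any other age.

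S100a8 and S100a9 encode both subunits of calprotectin, the antimicrobial protein that fills the cytoplasm of neutrophils. Their 5′ flanks are shown because both genes peaked on the same array. Both are 250 bases before the gene start in RefSeq on GRCm38.p6, S100a8 at chr3:90668821-90669070 on the plus strand and S100a9 at chr3:90695722-90695971 on the minus strand. Capitals mark the PU.1 core as above or TTGCNNAA, a pattern of the C/EBP factors of granulocytes, and the 2 patterns did not overlap.
S100a8: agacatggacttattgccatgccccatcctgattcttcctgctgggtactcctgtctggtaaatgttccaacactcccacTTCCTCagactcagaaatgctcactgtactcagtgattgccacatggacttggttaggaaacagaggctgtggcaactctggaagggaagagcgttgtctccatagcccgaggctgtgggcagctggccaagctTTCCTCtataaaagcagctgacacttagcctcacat
S100a9: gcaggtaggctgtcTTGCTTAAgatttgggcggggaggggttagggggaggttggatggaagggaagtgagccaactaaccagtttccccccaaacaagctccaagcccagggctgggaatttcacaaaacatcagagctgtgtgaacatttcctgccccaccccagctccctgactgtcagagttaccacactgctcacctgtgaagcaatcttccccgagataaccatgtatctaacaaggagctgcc
S100a8 held the PU.1 core beginning 170 and 36 bases before its start, and S100a9 held TTGCNNAA beginning 236 bases before. TTGCNNAA on either strand stood in 4 of the 26 member windows (15.4%, 3 genes) and in 10.8% of all.

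S100a8 read 0.671, 0.847 and 0.675 at 3wk, 1.14, 1.08 and 1.03 at 4wk, 0.868 and 0.867 at 5wk, 1.26, 2.61 and 1.22 at 6wk and 1.32, 0.751 and 0.974 at 7wk. S100a9 read 0.90, 0.473 and 0.787 at 3wk, 1.03, 1.01 and 0.90 at 4wk, 1.07 and 1.23 at 5wk, 1.15, 3.08 and 1.19 at 6wk and 0.986, 0.493 and 0.698 at 7wk. On both genes 6wk B stood far above the other 13 arrays, and the remaining arrays of 6wk lay between 1.15 and 1.26. S100a8 rose at 6wk against 3wk by 1.13 (SE 0.28), adjusted p = 0.0226, with no overlap between the ages. S100a9 differed by 1.22 (SE 0.38) with an adjusted p of 0.0562, also without overlap. Without 6wk B the difference of S100a8 was 0.77 (adjusted p = 0.0475) and that of S100a9 0.75 (adjusted p = 0.152). The call of S100a8 was lost without 3wk A (1.07, adjusted p = 0.0659) and without 3wk C (1.07, adjusted p = 0.0656). 6wk B was also the array with the lowest actin ratio, and the pyruvate carboxylase ratio was low on all 3 arrays of 6wk. With the actin ratio as a covariate S100a8 differed by 0.54 (adjusted p = 0.494). Without 6wk A and 6wk B together it differed by 0.74 (adjusted p = 0.184), close to the 0.77 without 6wk B alone, in a fit whose single array of 6wk is assumed to vary like those of the other ages. At 7wk neither was called, with differences from 3wk of 0.45 (SE 0.28) and 0.01 (SE 0.38).

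Of 14 other neutrophil marker genes on 15 probe sets, 3 probe sets were called over the ages (20%, against 10.3% of all). At 6wk against 3wk 4 were called higher, where 9.14% of all were. The median difference of the 15 probe sets was 0.188 at 6wk and 0.125 at 7wk, well below the rises of the genes named next. Their summed ratio ran from 12.5 to 15.7 at 3wk, 13.2 to 15.3 at 4wk, 14.6 to 15.9 at 5wk, 15.9 to 21.7 at 6wk and 16.5 to 19.2 at 7wk. Lcn2 and Ltf, iron-binding proteins of neutrophil granules that mammary epithelium also makes, rose by 2.52 (SE 0.20) and 2.35 (SE 0.27) from 3wk to 7wk, adjusted p = 6.71e-05 and 0.000564. Il1r2, a decoy receptor for interleukin 1, rose by 1.10 (SE 0.19), adjusted p = 0.00560. Whether the neutrophil markers had a part in the values of S100a8 was not tested.

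The mast cell proteases were not called (0 of 2 by limma, also at an unadjusted p under 0.05 over the ages). Of all probe sets 10.3% were called over the ages, and 27.6% had an unadjusted p under 0.05. Mcpt4, a chymase of connective tissue mast cells, read 0.238, 1.45 and 1.05 at 3wk, 0.458, 1.20 and 0.867 at 4wk, 0.916 and 0.838 at 5wk, 1.10, 0.651 and 0.947 at 6wk and 1.36, 1.60 and 2.08 at 7wk. Its highest array was 7wk C, its lowest 3wk A, and the difference at 7wk against 3wk, 1.21 (SE 0.57), had an interval of -0.04 to 2.46. Without 3wk A the difference of Mcpt4 was 0.42. Cpa3, their carboxypeptidase, read 0.790, 1.13 and 1.30 at 3wk, 0.802, 0.997 and 1.04 at 4wk, 1.0 and 0.783 at 5wk, 0.815, 0.671 and 0.724 at 6wk and 1.19, 1.07 and 1.07 at 7wk, with its 3 arrays of 6wk among the lowest and a difference of -0.52 (SE 0.19) at 6wk, adjusted p = 0.0957. Without 3wk A it was -0.72 and called (adjusted p = 0.0255). Of 13 probe sets of 10 further mast cell genes, 2 were called over the ages. Both were of Kit, the receptor of stem cell factor, which luminal progenitor cells also carry and which rose by 1.73 (SE 0.17) at 7wk (adjusted p = 0.000169).

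A single array held many of the low ratios at 3wk. 3wk A had the lowest ratio of its age for 35 of the 47 member probe sets (74.5%), against 45.9% of all probe sets, and the lowest of all 14 arrays for 20 (42.6%) against 17.1%. The mean log2 ratio of the members was -0.50 on 3wk A, 0.07 on 3wk B and 0.01 on 3wk C, and lay between -0.19 and 0.13 on the 11 later arrays. The 28 probe sets of the pan-leukocyte list, which holds no member, averaged -0.71 on 3wk A, 0.21 on 3wk B and 0.26 on 3wk C. Luminal markers were also lowest there, at -2.56 against -1.55 and -1.68, while those of lymph node stroma were not, at 0.62 against 0.73 and 0.52. Brown adipocyte markers were the highest of their age on 3wk A, at 1.26 against 0.95 and 0.70. So were endothelial markers, at 0.455 against -0.034 and -0.209. The median ratio over all tested probe sets was 0.937 on 3wk A, against 0.992 on 3wk B and 0.990 on 3wk C. The actin ratio of 3wk A, at 0.18, was the highest of its age, and what set the array apart was not tested. Later arrays leaned too. 7wk B had the highest ratio of its age for 24 members (51.1%), against 29.1% of all, and the highest of all 14 arrays for 8 (17%), against 6.89%. 6wk B had the lowest of its age for 29 members (61.7%), against 34.3% of all. Without 7wk B, Cd14 was still the 1 member called at 7wk against 3wk. The summed ratio of the members ran from 35.4 to 51.3 at 3wk and from 49.3 to 52.4 at 7wk, and that of the pan-leukocyte list from 19.5 to 35.3 and from 29.5 to 43.9.

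**Figure D4:**
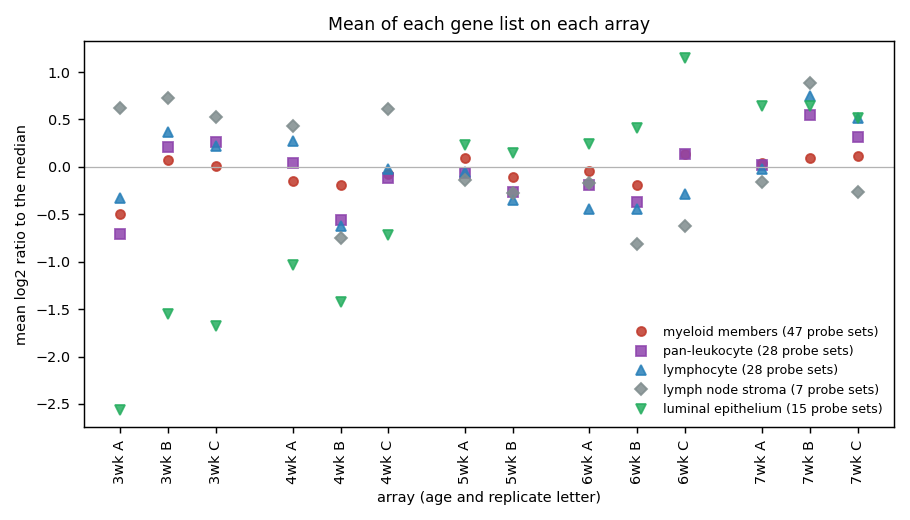
Mean log2 ratio to the median over the tested probe sets of 5 gene lists (marker shape and colour) on each of the 14 arrays, ordered by age. The myeloid members lie between -0.50 and 0.13, with 3wk A lowest, while luminal markers run from -2.56 on 3wk A to 1.15 on 6wk C and lymph node stroma varies from array to array.

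Lists of the cells and pathways around the members gave the following, with 10.3% of all probe sets called over the ages. Among 28 probe sets of 22 tissue-resident macrophage genes 2 were called (7.14%). Gas6, a ligand of the receptors by which macrophages take up dying cells, rose by 1.45 (SE 0.34) at 7wk (adjusted p = 0.0222), a call lost without 3wk A, 3wk B, 7wk B or 7wk C (differences of 1.18 to 1.52). Retnla, a secreted product of alternatively activated macrophages, had a mean ratio of 0.543 ± 0.103 (SD, n = 2) at 5wk against 1.22 ± 0.209 (SD, n = 3) at 3wk, and fell by 1.17 (SE 0.21, adjusted p = 0.0133). At 6wk and 7wk Retnla differed from 3wk by -0.19 and -0.40, with no call, and without 5wk B its difference at 5wk was -0.97 with none either (adjusted p = 0.127). The pan-leukocyte list gave 0 of 28 over the ages (limma; 2 at an unadjusted p under 0.05) and 2 higher at 7wk, with Lcp1, an actin-bundling protein of leukocytes, up by 1.11 (SE 0.29) (adjusted p = 0.0396), a call lost in 14 of 24 alternatives, among them without 3wk A (0.80, adjusted p = 0.114). Of the eosinophil list 3 of 10 genes were tested and 5 fell below the filter. None of the 3 was called (limma, 0 also at an unadjusted p under 0.05 over the ages), and their median difference at 7wk was 1.52. The lymph node stroma list, a check on the removal of the node, gave 0 of 7 called over the ages (limma, 1 at an unadjusted p under 0.05). Cr2 of that list was called lower at 6wk than at 3wk, by 0.74 (SE 0.17, adjusted p = 0.0159). The summed ratio of the list ran from 14.5 to 26.0 at 3wk, 4.83 to 24.1 at 4wk, 6.66 to 7.79 at 5wk, 4.42 to 6.57 at 6wk and 6.51 to 29.0 at 7wk. Its mean log2 ratio was 0.885 on 7wk B, against -0.155 on 7wk A and -0.263 on 7wk C. Whether node tissue had a part in the values of other genes was not tested.

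In the list of dendritic cell and class II genes 7 of 23 probe sets (30.4%) were called over the ages, against 10.3% of all. At 7wk against 3wk 7 were called higher, where 8.55% of all were called in either direction. At 6wk 5 were called higher and 1 lower. The median difference of the list was -0.17 at 6wk and 0.26 at 7wk, so the class II genes named next lay well above it. H2-Eb1, H2-Ab1 and H2-Aa, which encode chains of the class II molecules, rose by 2.19 (SE 0.32), 1.10 (SE 0.17) and 1.36 (SE 0.24) at 7wk against 3wk (adjusted p = 0.00211, 0.00249 and 0.00643). The summed ratio of that list was 19.4 to 24.1 at 3wk and 28.2 to 28.6 at 7wk. Of the lymphocyte list 4 of 28 (14.3%) were called over the ages. Jchain, of antibody-secreting cells, rose by 2.71 (SE 0.42) at 7wk, whereas Ighm fell by 0.95 (SE 0.25) and the T cell kinase gene Zap70 fell by 1.79 (SE 0.34) at 6wk (adjusted p = 0.00275, 0.0411 and 0.00698). The call of Ighm was lost in 16 of 24 alternatives. Zap70 at 7wk differed from 3wk by -0.17 (adjusted p = 0.821), and its call at 6wk was lost with the actin ratio as a covariate (-1.38, adjusted p = 0.184).

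Signals that draw or feed myeloid cells, listed together with some receptor chains and transcription factors, gave 6 calls on 33 probe sets (18.2%). Kitl, the stem cell factor, rose by 1.38 (SE 0.18) at 6wk and the transcription factor gene Runx1 by 1.69 (SE 0.26) at 7wk (adjusted p = 0.000737 and 0.00292). Ccl7, a chemokine for monocytes, was called over the ages (adjusted p = 0.0212) with its highest mean ratio, 1.94 ± 0.470 (SD, n = 2), at 5wk. Complement and phagocytosis genes gave 6 of 28 (21.4%). Mfge8, the milk fat globule protein that bridges phagocytes to dying cells and is made by epithelium as well, rose by 1.82 (SE 0.16) at 7wk, the integrin gene Itgb5 rose by 1.15 (SE 0.18) and the complement factor gene Cfb fell by 0.65 (SE 0.14), with adjusted p of 0.000101, 0.00302 and 0.0132. Of the lysosome list 3 of 33 (9.09%) were called. The protease genes Ctsk and Ctsl and the acid lipase gene Lipa rose by 1.03 (SE 0.15), 0.71 (SE 0.12) and 2.02 (SE 0.36) at 7wk (adjusted p = 0.00186, 0.00379 and 0.00591). Toll-like receptor and inflammatory genes gave 1 of 27 (3.7%), the arginase gene Arg1, which rose by 3.01 (SE 0.52) (adjusted p = 0.0050). Cfb was not called without 7wk B (adjusted p = 0.0516). With the hybridisation controls as a covariate Il1r2, Gas6, Lcp1, H2-Eb1, H2-Aa, Jchain, Ighm, Runx1, Cfb, Ctsk, Ctsl, Lipa and Arg1 lost their call at 7wk, with differences of the same sign. That covariate left 352 calls at 7wk against 3wk over all 18485 tested probe sets, where the main fit gave 1580. All 3 arrays of 7wk had lower hybridisation controls than every other array, so this covariate and the age cannot be fully told apart.

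Of the other compartments of the gland, basal markers had 5 of 12 probe sets (41.7%) called over the ages, adipocyte markers 4 of 11 (36.4%) and brown adipocyte markers 9 of 13 (69.2%). Endothelial markers had 2 of 12 (16.7%) and fibroblast markers 2 of 13 (15.4%), both near the 10.3% of all probe sets. Median differences at 7wk against 3wk were 2.43 for the luminal list, 0.83 for the basal, -0.44 for the adipocyte, -1.43 for the brown adipocyte, -0.27 for the endothelial and 0.15 for the fibroblast list, against 0.22 for the myeloid members.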

How the data were processed

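Total RNA of whole inguinal mammary glands was labelled with biotin and hybridised to Affymetrix arrays, per the labels' protocols. The authors deposited 1 table of linear ratios, in which the median of a probe set is 1 (tolerance 0.001) for 98.48% of 22690, so values had been divided by that median. Ratios ran from 0.01 to 38.13. Software, scaling between arrays and detection calls are not stated in the sources used here, and the division removed absolute signal.

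Log2 of the ratio was used, with no offset and no further normalization, since the medians of the arrays spanned 0.0938. In 6507 probe sets (28.68%) values came in whole steps, which gave the level before division. From these, 4141 below 200 steps on all arrays or all but 1 were left out with the 64 control probe sets, leaving 18485. The design had assumed signal values with a filter on them, which ratios do not allow. The platform annotation gave 1 gene for 20380 probe sets, several for 691 and none for 1555.

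limma 3.58.1 (R 4.3.3) fitted age as a factor over the 14 arrays, giving an F test and 7 comparisons (each age against 3wk and against the age before), two-sided, adjusted by Benjamini-Hochberg within each. The model was tested on simulated data. The 34 members, their roles and 18 lists without members were chosen with earlier results of these data known. Values are given per array for members with a call and for 19 markers (Csf1, Csf1r, Spi1, Adgre1, Cd68, Cd14, Cd163, Mrc1, C1qa, C1qb, Tyrobp, Fcer1g, Itgam, Itgax, Lyz2, S100a8, S100a9, Mcpt4 and Cpa3), and of other lists at most 3 called genes with the smallest F test p. Same-lettered arrays of different ages did not deviate together (r of deviations from age means -0.068 to 0.0849 over 26 pairs, against -0.120 to 0.0891 for 52 pairs of different letters), so letters were not taken to pair samples. Alternatives were array centring, quantile normalization, an offset of 0.1, no filter or a stricter one, gene means, each array left out, the actin ratio or hybridisation controls as covariates, the replicate letter as a block, array weights and, chosen after seeing the data, 6wk A and 6wk B left out together. Promoter windows are RefSeq's on GRCm38.p6. Python 3.11.15 made the tables and figures.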

Additional observations from a re-analysis of the deposited data

How the results depend on the processing

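None of the 5 called member differences changed sign in any alternative. Of the 47 differences, called or not, 18 at 7wk against 3wk and 26 at 6wk against 3wk changed sign in at least 1 of 24 alternatives (gene means aside), and the members' median at 6wk turned from 0.03 to -0.14 without 3wk A. With the replicate letter as a block (replicate block), which the check of letters gives no ground for, the F test called 2 members, Cd14 and Csf1, and the block changed no other count of members. At 6wk against 3wk the 3 calls became 1 with quantile normalization, with the actin ratio as a covariate and without 6wk A and 6wk B together (the last chosen after seeing the data, with 1 array of 6wk left), and 5 with the stricter filter (adding Lgals3 and S100a9) and with array weights (Cd14, Cpa3, Lgals3, S100a8 and S100a9). At 7wk against 3wk array centring, quantile normalization, the stricter filter, gene means and array weights each gave 2, adding Cd163. At 5wk against 4wk array centring, quantile normalization, the offset of 0.1, the stricter filter, gene means and array weights each gave 1, Cd14. Leaving out 1 array gave 1 to 2 members in the F test (Lgals3 joined without 4wk A, Laptm5 without 6wk C), 0 to 1 at 5wk against 3wk (0 without 5wk B, which leaves 1 array of 5wk), 1 to 4 at 6wk against 3wk (1, Cd14, without 3wk C), 1 to 3 at 7wk against 3wk (3 without 3wk C), 0 to 1 at 5wk against 4wk and 0 to 1 at 7wk against 6wk. The cause of these differences was not tested, except that the stricter filter and gene means adjust over fewer tests. With 2 or 3 arrays an age the intervals are wide, and ratios give no signal over background, so weak probe sets could be told only by the recovered steps.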
